A study of Mus musculus with 2 samples.

Results

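The respiratory chain genes described here are 97 of the 22253 genes in the RNA table. Apart from Cox5b-ps and Ndufb1-ps, described below, they encode subunits of the 4 electron transport complexes of mitochondria and of ATP synthase. The last is counted as complex V. The 97 genes were chosen by symbol. It starts with mt-, with Ndufa, Ndufb, Ndufc, Ndufs or Ndufv, with Sdh, with Uqcr, with Cox4 to Cox8, or with Atp5. Assembly factors named Ndufaf or Sdhaf were left out. Of the 100 genes that match, Cox7b2, Cox8b and Cox8c had no count and were dropped. The mitochondrial genome encodes 13 of the 97 (mt- genes) and the nuclear chromosomes encode 84. Apart from the need for a count, the rule used no measured value. It was set with earlier results of these data known. Ndufa4 is counted with complex I by its symbol, although its protein is known as a subunit of complex IV. Ndufb1-ps, annotated as a bidirectional promoter long noncoding RNA, is counted with complex I, and Cox5b-ps, a pseudogene by its symbol, with complex IV.

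Single cells of mouse distal small intestinal organoids, which are epithelial cultures grown from intestinal tissue, were sequenced from 2 control cultures and 3 Etv1 mutant cultures. Etv1 is a transcription factor of the ETS family. Each culture was sorted and tagged with its own hashtag oligo, and all 5 were pooled into 1 RNA library and 1 hashtag library. By genotype every culture, controls included, was Neurog3-RFP;Gcg-Venus, that is, a reporter line for endocrine progenitors and for glucagon-expressing cells. The labels call the cultures biological replicates, and they do not give the kind of Etv1 mutation, the sort gate, or the strain and age of the animals. The p-values below therefore measure the spread between these 5 cultures.

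Complex I takes electrons from NADH and complex II takes them from succinate. They pass through complex III and cytochrome c to complex IV, which reduces oxygen, and the proton gradient built on the way drives ATP synthase. The mitochondrial genome supplies core membrane subunits of complexes I, III, IV and V, and all subunits of complex II are nuclear, so 4 of the 5 complexes need transcripts from both genomes. In the intestine, crypt base stem cells are known for active mitochondria beside glycolytic Paneth cells, and absorptive enterocytes are known for being rich in mitochondria.

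One sequence bears on how the mt- counts can be read. Mouse mt-Atp8 and mt-Atp6, both subunits of ATP synthase, lie on 1 transcript and their reading frames share 43 bases, chrM:7927-7969 in mm10. It is shown in capitals, 5′ to 3′, within its 73-base window chrM:7912-7984 on the plus strand.
mt-Atp8 and mt-Atp6 overlap: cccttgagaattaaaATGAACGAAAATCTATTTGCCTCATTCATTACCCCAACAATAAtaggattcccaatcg
The capitals open with the mt-Atp6 start codon and close with the mt-Atp8 stop codon. In the same way mt-Nd4l and mt-Nd4 share 7 bases, and mt-Nd5 and mt-Nd6 share 14 on opposite strands. The sources used here do not say how reads over these bases were divided, so the values of these genes are uncertain relative to each other.

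Of 3409 barcodes, 237 had under 500 genes and 547 had over 25% of their counts on mt- genes. Hashtags placed 1432 of the remaining 2725 in 1 culture each: 323 and 349 in the controls and 282, 281 and 197 in the mutants, with 4193197 to 7254380 counts per culture. A second demultiplexing method left 67 of the 349 cells of control culture 2 without a culture, against 1 to 3 cells in each other culture. Etv1 itself stood at 6.20 and 6.28 counts per 1000000 counts (CPM) in the controls and at 3.21, 3.06 and 3.10 CPM in the mutants. The groups did not overlap, but where the mutation lies is not given, so Etv1 counts check the labels only in part. Markers of immune, mesenchymal, endothelial, neuronal or glial and erythroid cells each summed to under 6 CPM in every culture.

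Clustering, run with the 97 genes removed, gave 12 clusters, 9 of which were named from their markers. Of the other 3, a cluster of 171 cells had no marker of its closest class, and clusters of 189 and 101 cells were shallow, with 7 cycling and 6 Paneth markers but none of these among their 10 leading genes. The named classes were stem-like (322 cells), cycling-like (277), enterocyte-like (239), goblet/Paneth-like (78) and enteroendocrine-like (55, with 7 to 16 cells per culture). The enterocyte-like class pools clusters of 121, 78 and 40 cells, and the last was led by the injury-associated genes Sprr1a, Ly6d, F3 and Anxa1. Median depth differed between the classes, from 9535 counts per cell in enteroendocrine-like to 32618 in cycling-like cells. Classes were compared over cultures, with the culture as a block, and all 4 class comparisons share the stem-like cells as reference. In a sum of cells, fewer cells of a type and less RNA per cell cannot be told apart.

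Over all 1432 cells, mt- genes took 4.39% and 4.52% of counts in the controls and 4.16%, 4.03% and 4.25% in the mutants (4.27% ± 0.190, SD, n = 5). The 84 nuclear genes took 4.18%, 3.94%, 4.19%, 4.52% and 4.12% in the same order (4.19% ± 0.209, SD, n = 5). The 2 genomes thus supplied near-equal numbers of respiratory chain counts, with an mt-to-nuclear ratio of 1.02.

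The nuclear share was highest in enterocyte-like cells and lower in both secretory classes. It stood at 3.90% ± 0.202 in stem-like, 4.23% ± 0.116 in cycling-like and 4.84% ± 0.244 in enterocyte-like cells, and at 3.21% ± 0.424 in goblet/Paneth-like and 3.08% ± 0.174 in enteroendocrine-like cells (SD, n = 5 cultures each). Enterocyte-like cells exceeded stem-like cells in 5 of 5 cultures, at 1.24 times their share, and enteroendocrine-like cells lay below them in 5 of 5, at 0.790 times. Goblet/Paneth-like cells lay below stem-like cells in 4 of 5, at 0.819 times. The mt- share was 4.23% ± 0.420 in stem-like, 3.61% ± 0.208 in cycling-like and 4.26% ± 0.232 in enterocyte-like cells, so the last and the first differed by less than the spread between cultures. In enteroendocrine-like cells it ran from 2.43% in mutant culture 2 to 6.12% in mutant culture 3, a span that covers the values of the other 4 named classes. Sums over the genes were given no test.

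**Figure D1:**
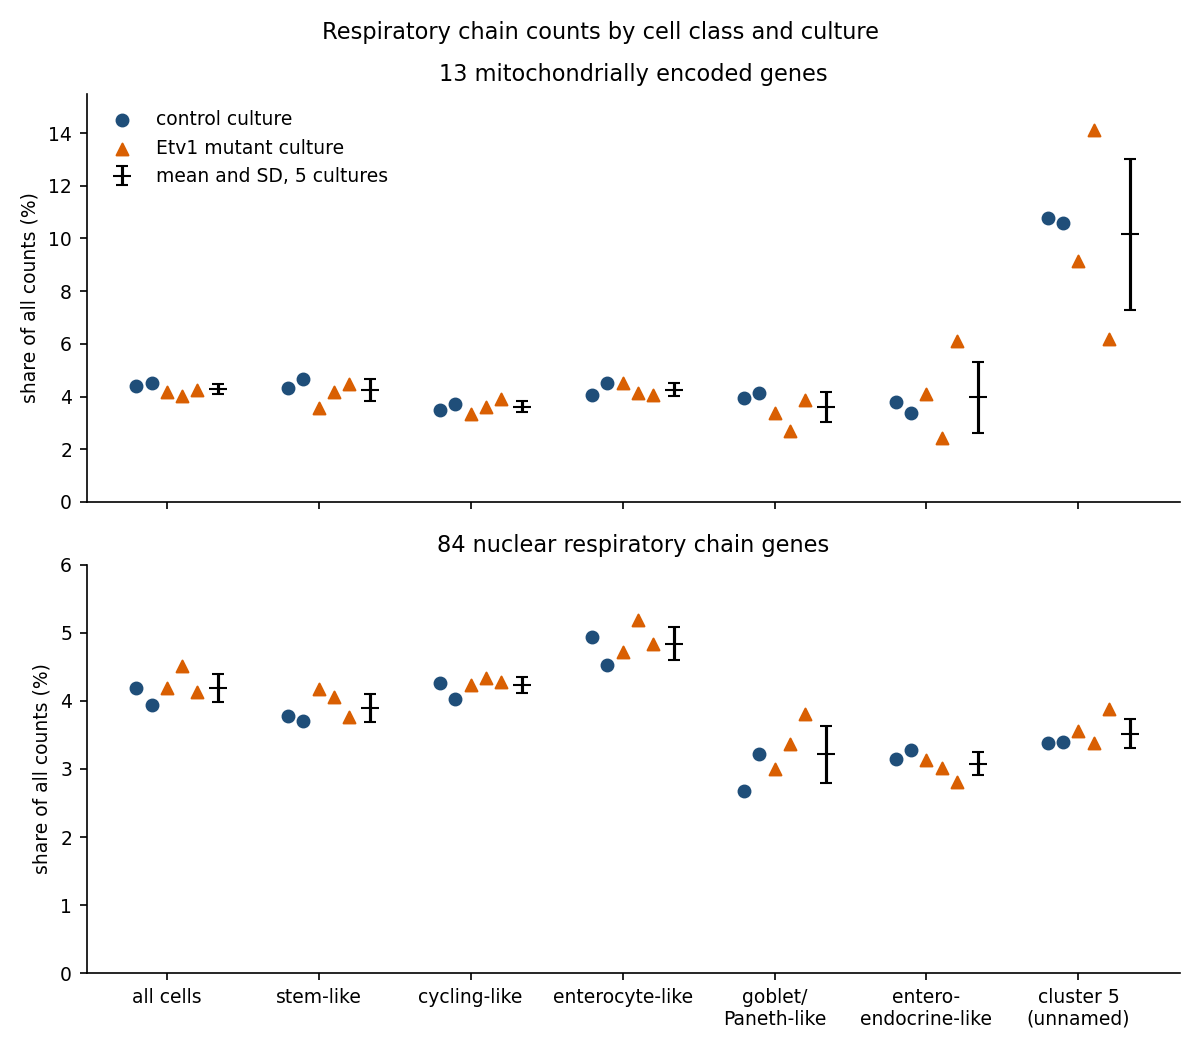
Share of all counts on mt- genes and on nuclear respiratory chain genes (%, vertical axes) by cell class, one point per culture with the mean. The nuclear share is highest in enterocyte-like cells (mean 4.84%) and lower in goblet/Paneth-like (3.21%) and enteroendocrine-like cells (3.08%), which overlap. Among the named classes the mt- share spreads most in enteroendocrine-like cells. The unnamed cluster of 189 cells, also drawn, spreads more, from 6.20% to 14.1%.

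Enterocyte-like cells held more nuclear respiratory chain transcripts in all 5 complexes. Of 79 nuclear genes tested with edgeR's quasi-likelihood test against stem-like cells, 58 rose, 2 fell and 19 did not pass an adjusted p of 0.05. Over all 8300 genes tested, 27.6% rose and 32.3% fell. The median log2 difference was 0.41 for the nuclear genes and -0.10 for all genes. The count depends on the scaling. On plain totals, with no composition factor, 45 nuclear genes rose and 2 fell, with a median of 0.26 against -0.25 for all genes. Of all 8300 genes 1881 rose and 3241 fell there. Of the 58 genes, 45 still passed and 58 kept their sign.

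Electrons enter the chain through complexes I and II. In complex I 24 of 38 rose, with a median of 0.37 log2. Ndufa6, an accessory subunit, stood at 450, 369, 374, 376 and 432 CPM in stem-like cells (controls 1 and 2, then mutants 1, 2 and 3) and at 809, 694, 674, 630 and 815 CPM in enterocyte-like cells. Every enterocyte-like value lay above every stem-like value, and the log2 difference was 0.997 (SE 0.10, adjusted p = 1.97e-10 by edgeR). Ndufv3, a small subunit of the NADH-binding arm, rose by 1.07 (SE 0.12), and Ndufb9 rose by 0.87 (SE 0.11). Split after the values were seen, the 7 core subunits encoded in the nucleus, which carry the catalytic centres, had 1 that rose (Ndufs7) and a median of 0.17, and the 31 accessory subunits had 23 that rose and a median of 0.41. Ndufs1, the largest core subunit, held 50.2, 49.3, 58.2, 57.1 and 52.1 CPM in stem-like cells and 52.2, 42.8, 59.6, 60.5 and 44.8 CPM in enterocyte-like cells, which overlap.

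Complex II, the succinate dehydrogenase of the citric acid cycle, had 3 of 4 subunits that rose. Sdhb, the iron-sulfur subunit, held 236, 238, 299, 268 and 231 CPM in stem-like and 538, 482, 432, 493 and 552 CPM in enterocyte-like cells. The classes did not overlap, and the log2 difference was 1.12 (SE 0.12, adjusted p = 1.36e-09 by edgeR). The membrane anchors Sdhd and Sdhc rose by 0.53 and 0.38. Sdha, the flavoprotein that oxidises succinate, had a log2 difference of 0.14 and did not pass.

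In complex III 7 of 8 subunits rose and 1 fell. Uqcrq, a small subunit, held 725, 648, 814, 754 and 667 CPM in stem-like and 1362, 1334, 1317, 1352 and 1319 CPM in enterocyte-like cells, a log2 difference of 1.04 (SE 0.10). The enterocyte-like values were close together and all above the stem-like ones. Uqcrfs1, the Rieske iron-sulfur protein, rose by 0.87, and the core protein Uqcrc1 by 0.37. Uqcr10, another small subunit, went the other way: 779, 836, 981, 931 and 843 CPM in stem-like cells against 589, 540.2, 608, 668 and 659 CPM in enterocyte-like cells. It fell by 0.37 (SE 0.10, adjusted p = 0.00221), again with no overlap between the classes. The call was lost with a narrower stem-like class of 174 cells (1 of its 2 clusters), with MULTIseqDemux, at cluster resolution 1.2 and with no filter on low counts.

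Complex IV had 11 of 12 nuclear subunits that rose, with a median of 0.58. Cox5a, a structural subunit, held 701, 727, 904, 755 and 717 CPM in stem-like and 1271, 1060, 1209, 1340 and 1167 CPM in enterocyte-like cells and rose by 0.81. Cox4i1, the largest nuclear subunit, rose by 0.51, from between 1819 and 1916 CPM to between 2301 and 2516 CPM.

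Cox7a1, an isoform of a small complex IV subunit best known from heart and skeletal muscle, had the steepest difference of the nuclear genes tested. It stood at 4.12, 2.27, 8.86, 2.64 and 6.88 CPM in stem-like cells, from 27 counts in all, and at 134, 80.2, 170, 106 and 162 CPM in enterocyte-like cells, from 766 counts. The log2 difference was 4.92 (SE 0.20, adjusted p = 8.9e-20 by edgeR). Its broadly expressed partner Cox7a2 rose by 0.86 (SE 0.12). Of the counts on the pair, Cox7a1 took 0.849% in stem-like and 12.1% ± 3.21 (SD, n = 5) in enterocyte-like cells, so Cox7a2 remained the main form in both. Cox7a1 also rose in goblet/Paneth-like cells, by 2.39 (SE 0.37), in cycling-like cells, by 1.22 (SE 0.30), and in enteroendocrine-like cells, by 1.57 (SE 0.56, adjusted p = 0.0288 by edgeR). The last came from 11 counts and was lost under 5 of 19 alternative settings. Among them were leaving out control culture 1 (1.204), control culture 2 (1.46) or mutant culture 2 (1.55). The enterocyte markers took 0.825% of counts in enterocyte-like cells, 0.377% in enteroendocrine-like, 0.0521% in stem-like and 0.0437% in goblet/Paneth-like cells. Per 10000 counts of those markers Cox7a1 held 155 in enterocyte-like, 512 in goblet/Paneth-like, 203 in cycling-like, 86.6 in stem-like and 52.2 in enteroendocrine-like cells, and the part of free RNA in these levels was not tested. Within the enterocyte-like class it was highest in the cluster whose leading genes include Apoa1 and Apoc3, at 220 CPM, against 105 and 78.4 CPM in the other 2 clusters, the last running from 0 to 144 CPM between cultures.

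In ATP synthase 13 of 17 subunits rose and 1 fell. The 3 genes Atp5g1, Atp5g2 and Atp5g3 encode the same mature ring subunit c with different import sequences, and they shifted against each other. Atp5g2 held 1180, 1124, 1091, 1153 and 1208 CPM in stem-like and 880.2, 769, 724, 891 and 796 CPM in enterocyte-like cells and fell by 0.36 (SE 0.10, adjusted p = 0.00359 by edgeR), while Atp5g1 rose by 0.46 and Atp5g3 by 0.37. The fall of Atp5g2 was lost under the same 4 settings as that of Uqcr10, and the rise of Atp5g3 on plain totals, at 0.22. Atp5g2 thus went from 47.2% to 34.01% of the counts on the 3 genes, lower in 5 of 5 cultures, and Atp5g1 from 35.2% to 44.9%, higher in 5 of 5. Of the values of Atp5g1 above 0, 10.9% were not whole numbers, so the authors' counting shared some of its reads with other genes and its level is uncertain. The catalytic subunit Atp5b rose by 0.25 (adjusted p = 0.0325 by edgeR), a call lost under 7 of 21 alternative settings. Among them were leaving out control culture 1, control culture 2, mutant culture 2 or mutant culture 3 (0.20 to 0.26) and plain totals (0.10).

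**Figure D2:**
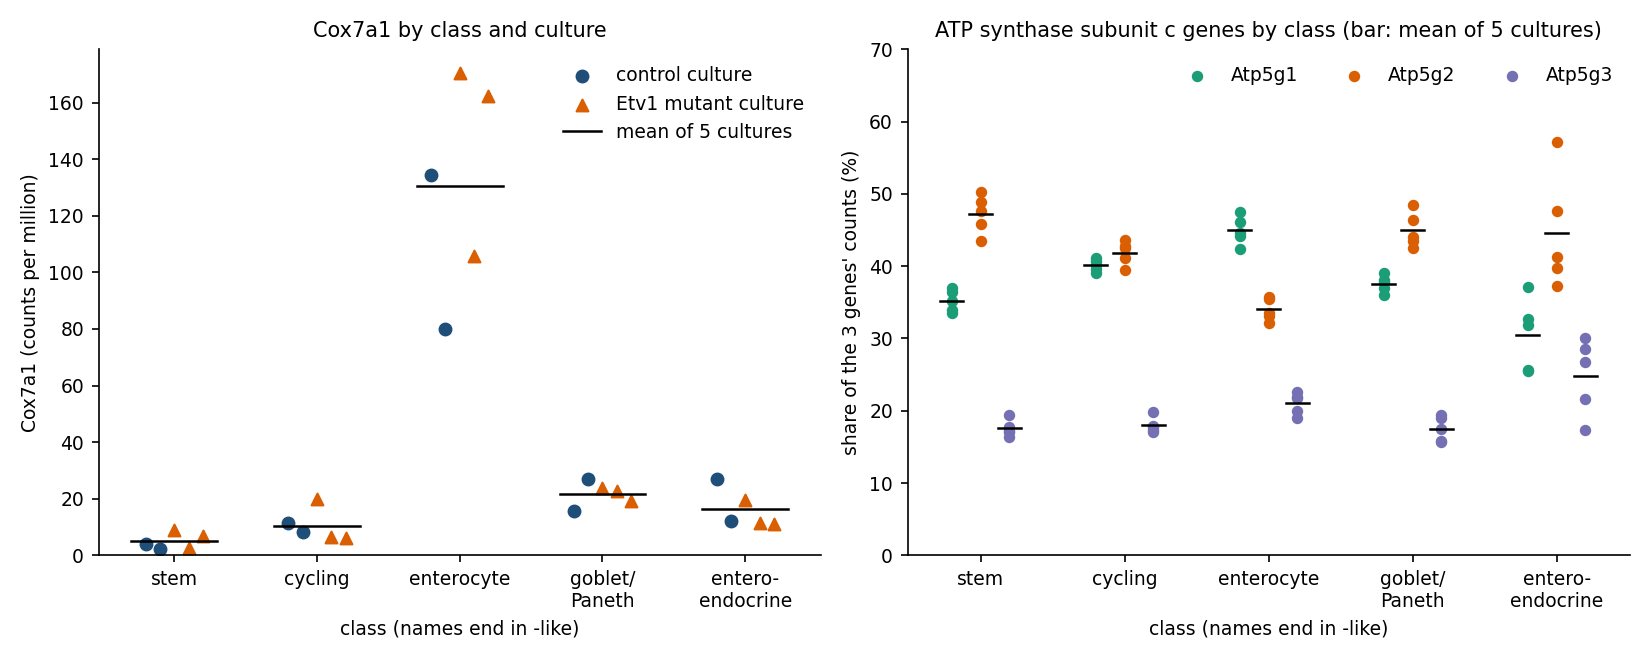
Left, Cox7a1 (CPM, vertical axis) by cell class, one point per culture with the mean. Right, share of each Atp5g gene in the counts of the 3 (%, vertical axis), drawn the same way. Cox7a1 rises from a mean of 4.95 CPM in stem-like to 131 CPM in enterocyte-like cells, and Atp5g2 is lower there (34.01% against 47.2%).

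The mt- genes did not move as 1 block in enterocyte-like cells. Of 13 tested, 2 rose, 1 fell and 10 did not pass, with a median of -0.01. Of all genes 27.6% rose and 32.3% fell. On plain totals 1 mt- gene rose and 3 fell, with a median of -0.16, against 1881 and 3241 of all 8300 genes. The catalytic subunit mt-Co1 of complex IV held 7966, 8561, 6540, 7702 and 9160 CPM in stem-like and 10538, 12205, 12027, 8960 and 13151 CPM in enterocyte-like cells. The ranges overlap, but each culture was higher in its enterocyte-like cells, and the log2 difference was 0.64 (SE 0.11, adjusted p = 6.66e-06 by edgeR). The complex III subunit mt-Cytb held 7534, 7997, 5260, 7451 and 7564 CPM in stem-like and 4420, 4715, 4243, 6384 and 3564 CPM in enterocyte-like cells and fell by 0.45 (SE 0.17, adjusted p = 0.0205). That call was lost under 8 of 20 alternative settings, among them without control culture 1 (-0.41), control culture 2 (-0.40) or mutant culture 3 (-0.34) and with DESeq2. The rise of mt-Co2, by 0.34 (adjusted p = 0.0223 by edgeR), was lost under 7 of 20. These included leaving out control culture 1 (0.34) or mutant culture 1 (0.30), dropping the culture block, and plain totals, at 0.20. As a share of mt- counts, mt-Co1 made up 18.8% in stem-like and 26.7% in enterocyte-like cells, and mt-Cytb 16.8% and 10.98%.

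**Figure D3:**
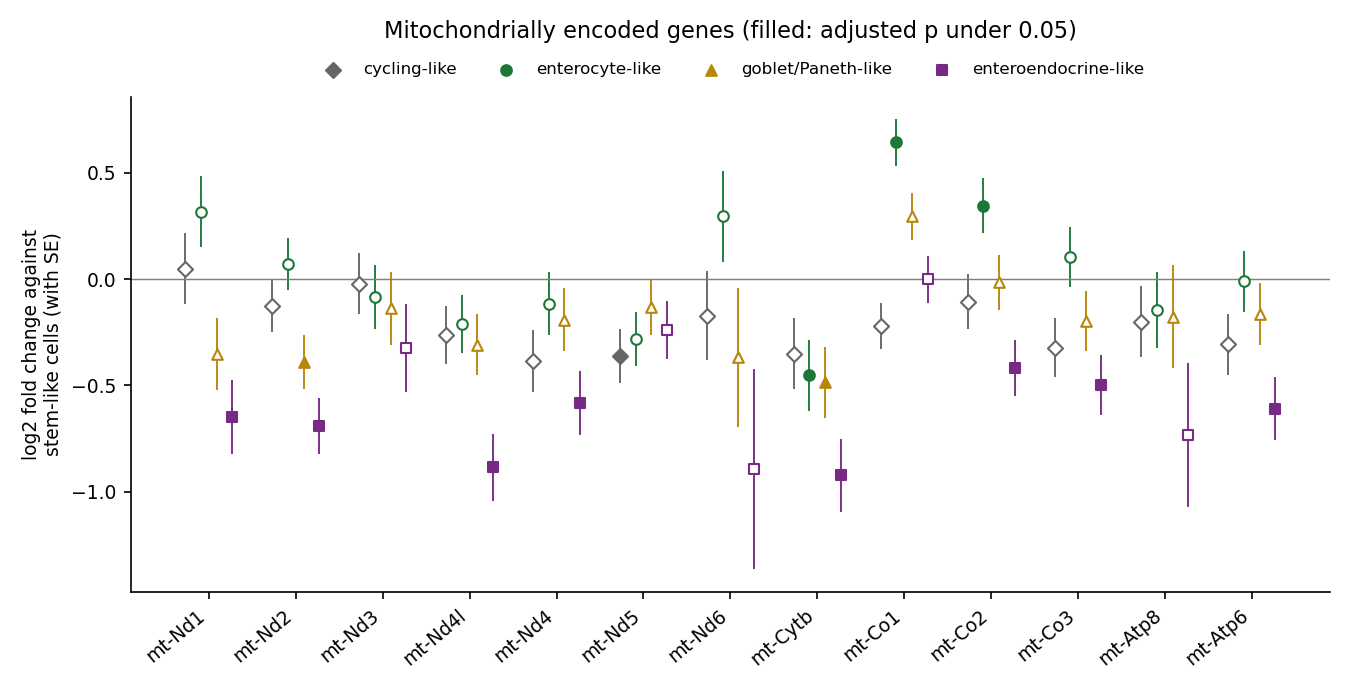
Log2 difference to stem-like cells for each of the 13 mt- genes by cell class, with the standard error. In enterocyte-like cells mt-Co1 stands at 0.64 and mt-Cytb at -0.45, and in enteroendocrine-like cells mt-Co1 stands at 0.00.

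In enteroendocrine-like cells the chain stood lower. Of 79 nuclear genes, 63 fell, 2 rose and 14 did not pass, with a median of -0.68 against -0.06 for all genes, of which 18.4% fell and 14.4% rose. Complex I had 27 of 38 that fell and 1 that rose, complex II 4 of 4 that fell, complex III 7 of 8, complex IV 11 of 12 with the other rising, and complex V 14 of 17. These counts depend on the scaling. On plain totals, with no composition factor, the median of all genes moved from -0.06 to 0.33, and of all calls 75.2% were rises against 43.8%. There 33 nuclear genes fell and 3 rose, against 730 and 2213 of all 8300 genes. Of the 63 nuclear genes, 33 still passed and 60 kept their sign. Relative to all genes the nuclear median was -0.62 under both scalings. A change of scaling moves all genes by about the same amount, so it could not alter this difference. Enteroendocrine-like cells were also the shallowest class. Among cells of 5000 to 20000 counts alone 27 nuclear genes fell and 2 rose of 77 tested, with a median of -0.36. Of all 2011 genes tested in that window 420 fell and 520 rose, with a median of 0.09. Over all enteroendocrine-like cells, short genes were lower in general. The 501 other genes with transcripts under 1000 bases had a median of -0.47, and the 7565 longer ones -0.03. The 44 nuclear respiratory chain genes under 1000 bases had -0.64 and the 32 longer ones -0.81.

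Cox5a held 531, 573, 472, 411 and 337 CPM in enteroendocrine-like cells, all below its 701 to 904 CPM in stem-like cells, and fell by 1.02 (SE 0.14, adjusted p = 8.02e-07 by edgeR). Atp5b held 724, 652, 757, 719 and 697 CPM against 1060 to 1189 CPM and fell by 1.003 (SE 0.11). Uqcrc1 held 236, 213, 157, 183 and 157 CPM against 307 to 375 CPM and fell by 1.09 (SE 0.15). In all 3 genes every enteroendocrine-like culture lay below every stem-like one, and Cox5a and Uqcrc1 spread more between the enteroendocrine-like cultures. Ndufa5, an accessory subunit of complex I, fell by 1.21 (SE 0.16), and Ndufv1, which carries the NADH-binding site, by 1.17 (SE 0.19). The membrane anchor Sdhc fell by 1.16 (SE 0.19), a call lost in cells of 5000 to 20000 counts, at -0.62. Sdhb had 156, 226, 167, 171 and 191 CPM, below every stem-like value, but its call was lost in cells of 5000 to 20000 counts, on plain totals (-0.42) and with the narrower stem-like class. Ndufv3 was higher, at 606, 561, 511, 399 and 270 CPM against 243 to 277 CPM in stem-like cells, and rose by 0.51 (SE 0.14, adjusted p = 0.00401). The call was lost without control culture 1 (0.41), and the groups overlap through mutant culture 3.

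Of the 13 mt- genes 8 fell in enteroendocrine-like cells, where 18.4% of all genes fell. On plain totals 2 fell and 1 rose, against 730 and 2213 of all 8300 genes. The largest of the 8 was mt-Cytb, which fell by 0.92 (SE 0.17, adjusted p = 6.64e-05 by edgeR) and held 4721, 4359, 4386, 3024 and 7601 CPM. Mutant culture 3 was far above the others there and mutant culture 2 the lowest, as for the mt- sum. In this class mt-Co1 did not pass, at a log2 difference of 0.00 that becomes 0.39 on plain totals.

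**Figure D4:**
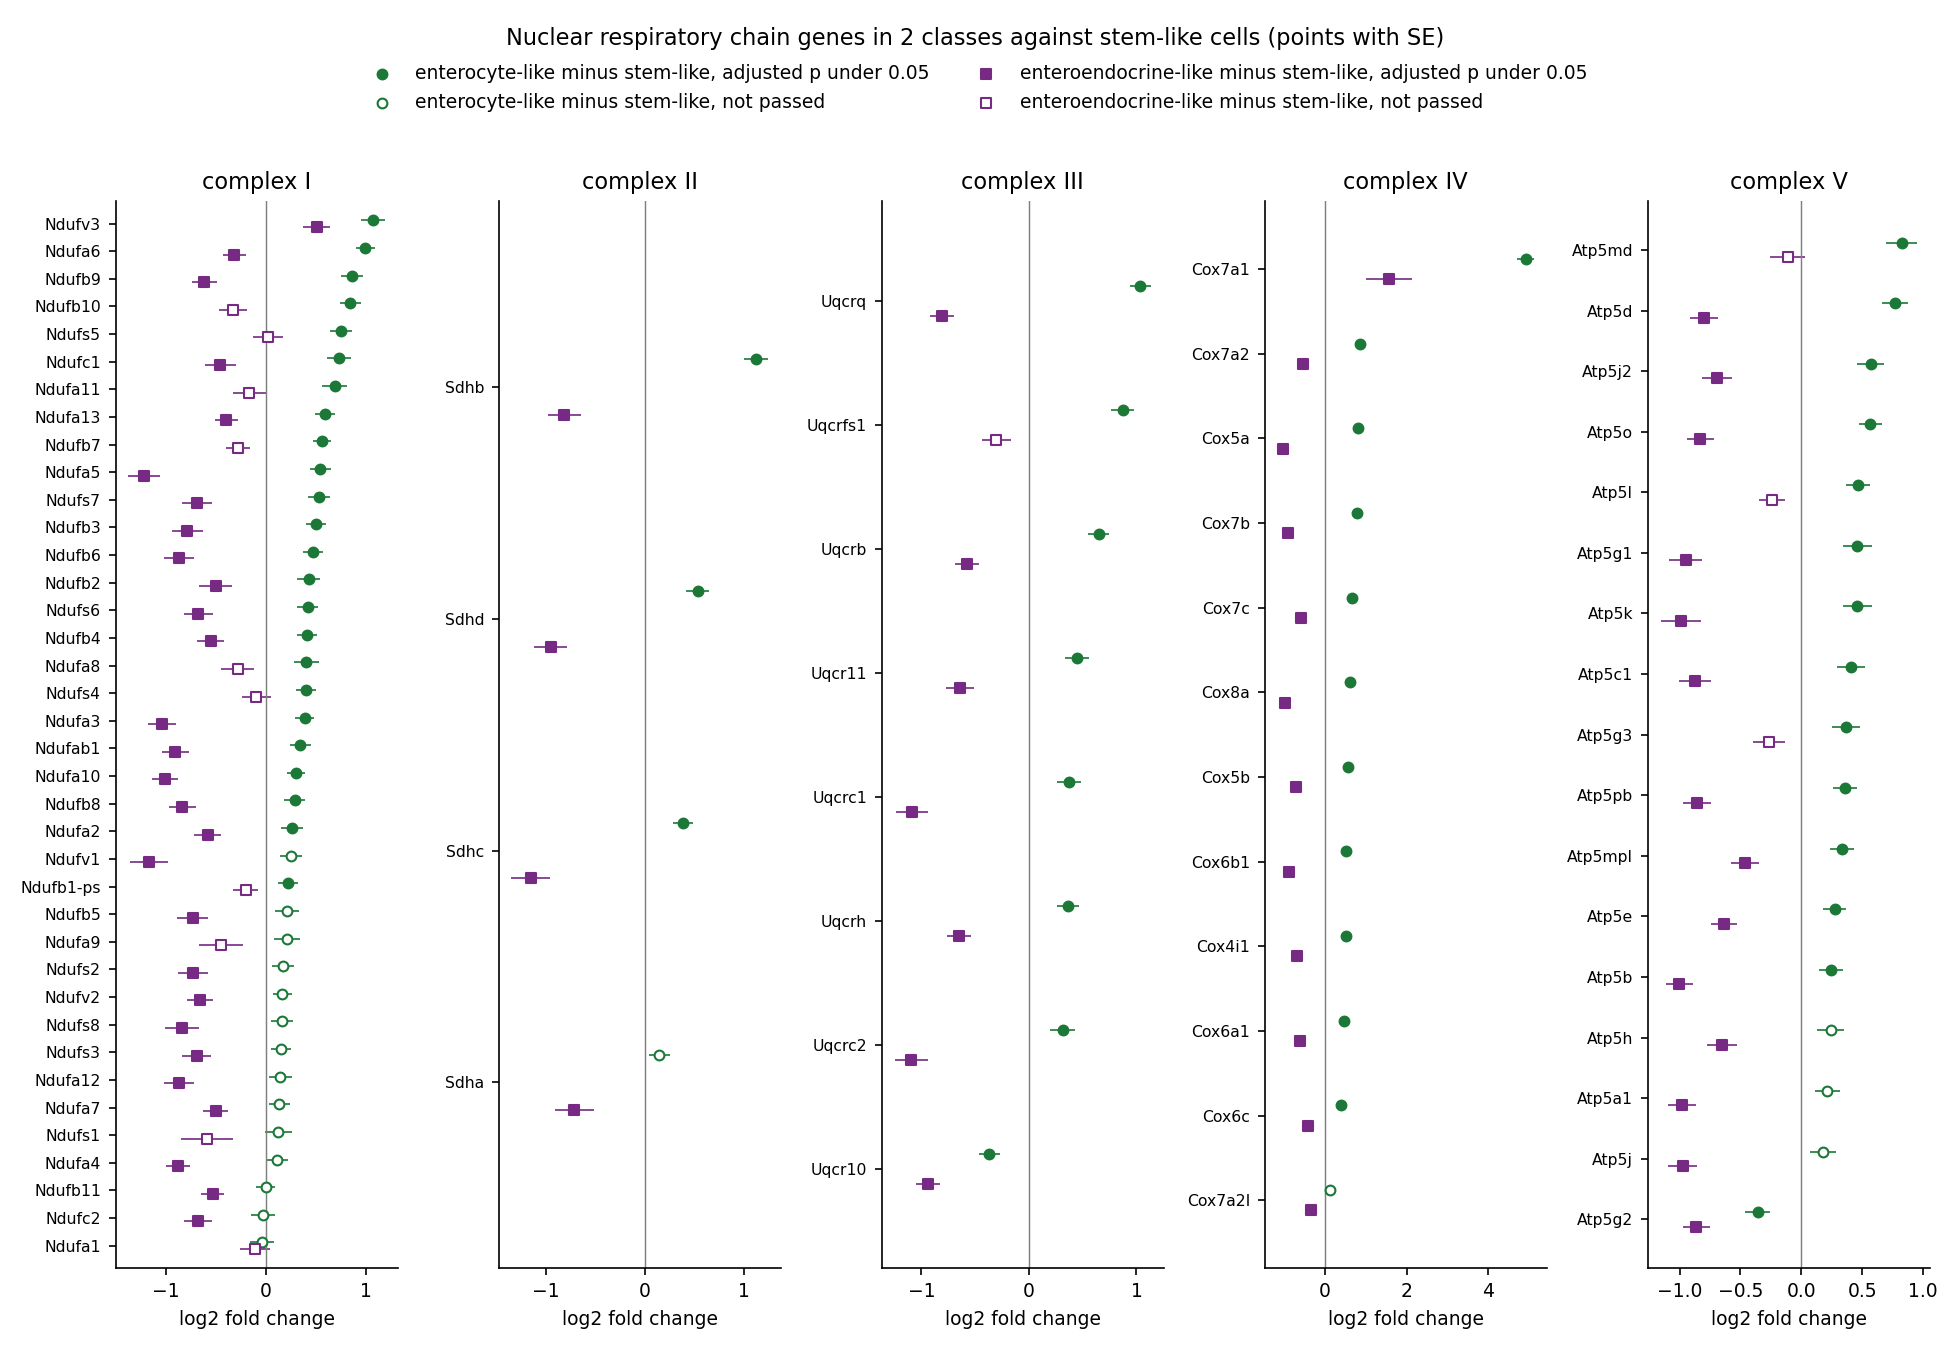
Log2 difference to stem-like cells for the nuclear respiratory chain genes by complex, in enterocyte-like and enteroendocrine-like cells, one point per gene and class with the standard error. Most points lie above 0 in enterocyte-like cells (median 0.41) and below 0 in enteroendocrine-like cells (median -0.68), in each of the 5 complexes.

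In cycling-like cells 8 of 79 nuclear genes rose and 1 fell, against 10.8% and 9.65% of all genes, with a median of 0.14 against -0.03. The number of rises moved with the settings: it was 26 with DESeq2 (929 of 8300 genes rose), 35 with MULTIseqDemux (1127 of 7523), 34 at cluster resolution 1.2 (1116 of 7833) and 49 with the narrower stem-like class (1237 of 7492). Ndufa5 held 346, 303, 350.1, 365 and 308.6 CPM in cycling-like cells and 239, 228, 251, 252 and 220.1 CPM in stem-like cells, with no overlap, and rose by 0.48 (SE 0.10, adjusted p = 7.76e-04 by edgeR). Uqcrq rose by 0.43, from 648 to 814 CPM to 916 to 1026 CPM. Of the mt- genes 1 of 13 fell, mt-Nd5, by 0.36 (adjusted p = 0.0377 by edgeR), and 12 of 13 lay below 0, against 53.2% of all genes. The mt-Nd5 call was lost under 8 of 19 alternative settings, among them without control culture 1, control culture 2, mutant culture 2 or mutant culture 3 (-0.37 to -0.32). The mt- share of cycling-like cells was lower in 5 of 5 cultures, at 0.854 times that of stem-like cells. With the unnamed cluster described next counted as cycling, it turned higher, at a log2 ratio of 0.16.

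In goblet/Paneth-like cells 1 of 79 nuclear genes rose, Cox7a1, and 8 fell, against 12.2% and 7.48% of all genes. The median was -0.18 against -0.01. Its sign depends on the stem-like reference and the clusters. With the narrower stem-like class it turned to 0.05, with 54 of 79 genes above 0. At cluster resolution 1.2 it turned to 0.02, with 46 of 79 above 0. Uqcr10 held 417, 549, 457, 543 and 621 CPM, below its 779 to 981 CPM in stem-like cells, and fell by 0.64 (SE 0.11, adjusted p = 2.13e-05 by edgeR). Sdhd fell by 0.57 (SE 0.14), a call lost with MULTIseqDemux, at cluster resolution 1.2 and with the narrower stem-like class. The ATP synthase subunit Atp5c1 fell by 0.39, a call lost without control culture 1, mutant culture 1 or mutant culture 2 (-0.35 to -0.29) and under the last 2 of those settings. The falls of mt-Cytb, by 0.49, and mt-Nd2, by 0.39, were the only 2 among the 13 mt- genes. Both were lost without control culture 2, mutant culture 1 or mutant culture 2 (-0.51 to -0.26). In all, the mt-Cytb call was lost under 9 of 20 alternative settings and the mt-Nd2 call under 5 of 20. On plain totals the class's median over all genes was -0.12, and 43.3% of all calls were rises against 61.9%. There 36 nuclear genes fell, against 1081 of all 8300 genes.

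Part of the mt- signal sat in barcodes outside the named classes. An unnamed cluster of 189 cells, with a median of 7420 counts per cell, had an mt- share of 10.8%, 10.6%, 9.14%, 14.1% and 6.20% over the 5 cultures and a nuclear share of 3.52% ± 0.216 (SD, n = 5). It made up 17.3% and 12.6% of the control cells and 16.7%, 6.41% and 12.2% of the mutant cells. Its mt- counts were made up differently from those of the named classes: mt-Co1 took 18.6% against 21.6%, lower in 5 of 5 cultures, and mt-Nd1, a membrane subunit of complex I, took 8.23% against 6.80%, higher in 5 of 5. Beyond the limit of 25%, 238 barcodes belonged to 1 culture each, with a median mt- share of 33.5% and a median of 3522 counts. They were 12.2% and 14.9% of the control barcodes and 14.3%, 16.6% and 12.8% of the mutant barcodes, which overlap. Within stem-like cells the mt- share was lower in deeper cells (Spearman's rho -0.50 over 322 cells) and the nuclear share higher (0.56). These are descriptions across cells of 1 library that share their denominator.

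**Figure D5:**
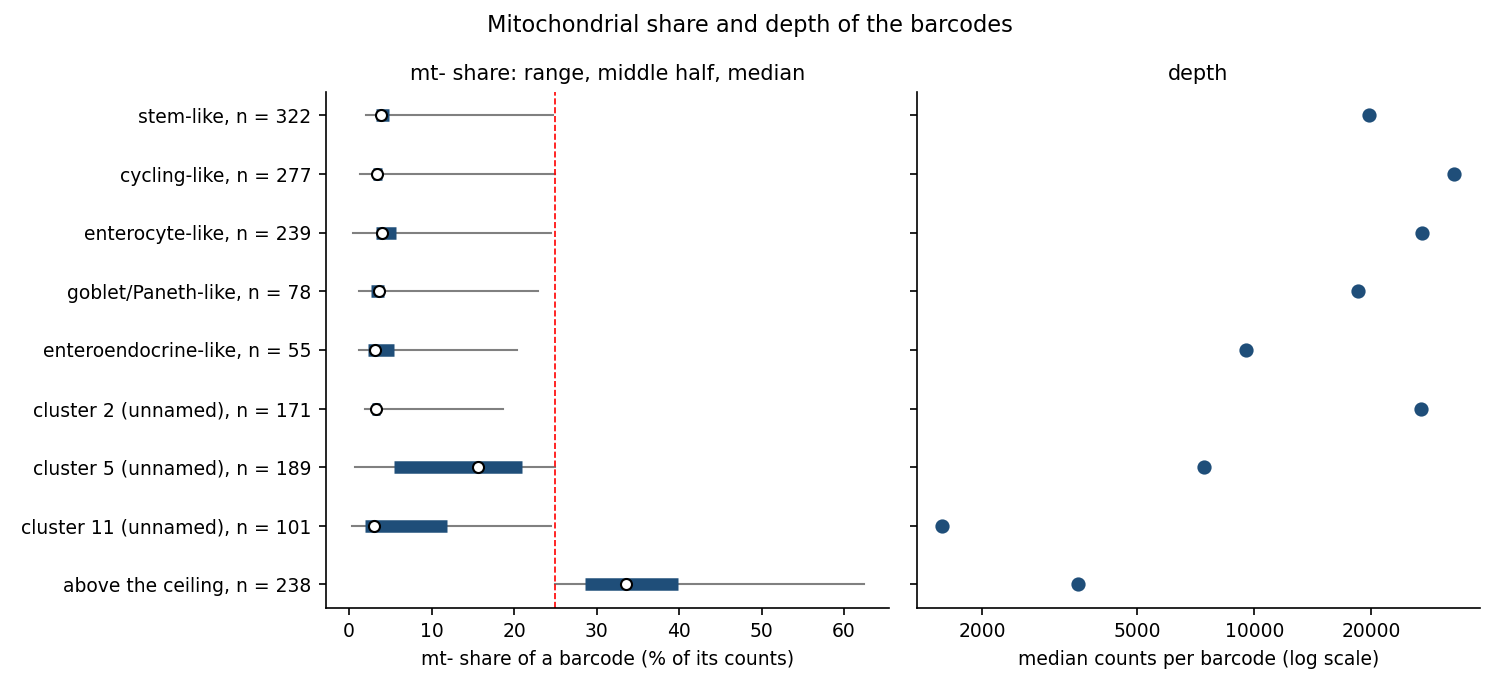
Left, mt- share of single barcodes (% of their counts) by class, with the range, the interquartile range and the median, and a dashed line at the 25% limit. Right, the median counts per barcode on a log scale: the barcodes above the limit and the unnamed clusters of 189 and 101 cells are the shallowest, and the unnamed cluster of 171 cells is not shallow.

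Between genotypes no respiratory chain gene passed. Over all cells edgeR's quasi-likelihood test called 1 of 11061 genes (0.00904%) and none of the 13 mt- and 80 nuclear genes, of which 2 and 0 had an unadjusted p under 0.05, against 3.05% of all genes. The 13 mt- genes all lay below 0, with a median of -0.12 log2 (mutant minus control), and 74 of 80 nuclear genes lay above 0, with a median of 0.07. Among all genes 49% lay below 0 and 51% above. Counts summed over all cells mix the classes in different proportions. Enterocyte-like cells made up 16.4% and 12.03% of the control cells and 17.4%, 24.6% and 13.2% of the mutant cells. Stem-like cells made up 24.5% and 28.1% against 12.8%, 19.9% and 26.9%. Within stem-like, cycling-like and enterocyte-like cells 52 of 78, 61 of 79 and 56 of 80 nuclear genes lay above 0. The part of class proportions in the 74 of 80 was not tested. Complex IV subunit mt-Co3 held 6774 and 7064 CPM in the controls and 6422, 5692 and 6261 CPM in the mutants, with no overlap. The same held for mt-Nd3, mt-Atp6 and mt-Atp8, so 4 of 13 did not overlap, nor did 21 of 80 nuclear genes, against 16.9% of all genes. The mt- share differed by -0.306 percentage points, with no overlap, and by -0.147 without the unnamed cluster of 189 cells. Most mt- genes are cut from 1 long precursor transcript, so 13 of 13 is not 13 separate observations.

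Within stem-like cells 2 of 8055 genes passed between genotypes (0.0248%), and none of the 13 mt- and 78 nuclear genes did. An unadjusted p under 0.05 was reached by 6 mt- genes and 1 nuclear gene, against 4.48% of all genes, and 12 of 13 mt- genes lay below 0, as did 50.5% of all genes, with a median of -0.18. Without mutant culture 1, which had the lowest stem-like mt- share at 3.56%, the median was -0.05. With no filter on low counts mt-Cytb passed, at -0.24 and an adjusted p of 0.0488. In cycling-like cells 2 of 9033 genes passed (0.0221%), and 0 mt- and 2 of 79 nuclear genes had an unadjusted p under 0.05, against 4.64% of all genes. In enterocyte-like cells 0 of 7320 passed by edgeR (0%), with 185 genes (2.53%) at an unadjusted p under 0.05, none of them in the chain. The mt- medians were 0.00 in both classes. At cluster resolution 1.2 the cycling-like class gave another picture, with all 13 mt- genes below 0, a median of -0.25 and 10 of 13 at an unadjusted p under 0.05, and none passed the adjusted test there either. With the unnamed cluster of 189 cells counted as cycling the median was -0.22. The difference of the genotype effect between classes did not pass for any gene: 0 of 9583, with no mt- gene at an unadjusted p under 0.05 in cycling-like or enterocyte-like against stem-like cells, where 2.63% and 3.67% of all genes were.

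The genes that work beside the chain were taken as 5 lists. Their values are given with composition factors only. In enteroendocrine-like cells plain totals moved the median of all genes from -0.06 to 0.33. The falls of list genes in that class depend on this scaling and are not given on plain totals. Cytochrome c, the electron carrier between complexes III and IV, moved with the nuclear subunits: Cycs rose by 1.29 in enterocyte-like and by 0.79 in cycling-like cells and fell by 0.52 in enteroendocrine-like cells, and Cyc1, the complex III subunit that feeds it, rose by 0.68 and 0.45 and fell by 0.93. Of 17 citric acid cycle genes tested, 10 rose and 4 fell in enterocyte-like cells (27.6% and 32.3% of all genes). Among them Ogdh rose (1.41) and Idh2 fell (-0.92). Ogdh was among the variable genes used for clustering, so its rise is not independent of the classes. In enteroendocrine-like cells 12 of the 17 fell (18.4% of all genes), led by Suclg2 (-2.40) and Idh3a (-1.36).

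Genes for transcription and RNA handling within mitochondria did not rise with the nuclear subunits in enterocyte-like cells. Of 17 tested 9 fell and 0 rose, against 32.3% and 27.6% of all genes, with a median of -0.56 against -0.10, among them Tfam (-0.81), which packages and transcribes mitochondrial DNA, its partner Tfb2m (-1.09) and the single-stranded DNA binding protein Ssbp1 (-1.09). In enteroendocrine-like cells 4 of 17 fell and 0 rose, against 18.4% and 14.4% of all genes, with a median of -0.39, and Tfam fell by 1.84 and Tfb2m by 1.53. In goblet/Paneth-like cells 4 of 17 fell and 0 rose, against 7.48% and 12.2% of all genes, with a median of -0.58. Of 7 nuclear regulators tested, Esrra, the ERR alpha receptor, rose by 1.51 in enterocyte-like and fell by 0.92 in enteroendocrine-like cells, and Nrf1 fell by 0.80 in enterocyte-like cells. Of 42 assembly factors tested, 11 rose and 5 fell in enterocyte-like cells, a share of rises near the 27.6% of all genes, and the copper chaperone Cox17 and Cox16, another factor of complex IV assembly, rose by 0.99 and 1.08. In enteroendocrine-like cells 13 fell and 2 rose, against 18.4% and 14.4% of all genes. No gene of the 5 lists passed between genotypes in any class or over all cells.

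Promoters were read for 67 of the 84 nuclear genes from RefSeq's table of the mouse assembly GRCm38.p6, each 300 bases from 250 before to 50 after the annotated start, and searched on both strands. The NRF1 motif (GCGCA, any base, GCGC) was in 25.4% of these genes against 5.19% of all 27025 genes with a promoter in the table, the ETS motif CCGGAAG in 25.4% against 9.93%, the YY1 motif AANATGGCG in 14.9% against 2.76% and the ERR motif TCAAGGTCA in 2.99% against 0.466%. At least 1 of the 6 motifs searched, which included the CRE motif TGACGTCA and the HNF4 motif CAAAGTCCA, was in 61.2% against 18.2%. Among the 48 genes that rose in enterocyte-like cells 66.7% held 1, and among the other 19 47.4% did, a description with no test. Such a match is a string of letters and not a shown binding site.

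The promoters of 5 genes described above are printed 5′ to 3′ on each gene's own strand, with motif matches in capitals: the isoform pair Cox7a1 and Cox7a2, and Sdhb, Sdhd and Ndufa6, which rose in enterocyte-like cells. They lie at chr7:30183921-30184220 (plus strand), chr9:79759804-79760103 (minus), chr4:140961021-140961320 (plus), chr9:50603800-50604099 (minus) and chr15:82354242-82354541 (minus), in that order.
Cox7a1: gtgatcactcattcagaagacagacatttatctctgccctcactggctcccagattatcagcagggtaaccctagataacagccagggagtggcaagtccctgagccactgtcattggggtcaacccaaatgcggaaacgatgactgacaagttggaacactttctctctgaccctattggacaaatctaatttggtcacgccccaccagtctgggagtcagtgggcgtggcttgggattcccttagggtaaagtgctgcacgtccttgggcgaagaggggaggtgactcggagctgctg
Cox7a2: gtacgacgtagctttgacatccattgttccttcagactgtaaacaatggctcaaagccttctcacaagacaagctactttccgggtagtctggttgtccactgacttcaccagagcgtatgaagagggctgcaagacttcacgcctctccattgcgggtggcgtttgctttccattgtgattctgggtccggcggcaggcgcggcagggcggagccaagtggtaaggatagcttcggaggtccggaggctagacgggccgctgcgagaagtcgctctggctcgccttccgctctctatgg
Sdhb: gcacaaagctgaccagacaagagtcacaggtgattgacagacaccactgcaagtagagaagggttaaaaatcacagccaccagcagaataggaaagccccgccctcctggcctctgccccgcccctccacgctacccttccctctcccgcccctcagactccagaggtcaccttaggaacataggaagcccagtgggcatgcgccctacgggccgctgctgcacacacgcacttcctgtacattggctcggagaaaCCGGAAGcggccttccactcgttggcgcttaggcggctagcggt
Sdhd: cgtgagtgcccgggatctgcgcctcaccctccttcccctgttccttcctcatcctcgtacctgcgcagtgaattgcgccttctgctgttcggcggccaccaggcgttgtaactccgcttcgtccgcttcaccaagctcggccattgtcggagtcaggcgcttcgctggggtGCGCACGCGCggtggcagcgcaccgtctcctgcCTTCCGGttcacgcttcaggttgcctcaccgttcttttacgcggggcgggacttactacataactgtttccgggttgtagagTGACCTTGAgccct
Ndufa6: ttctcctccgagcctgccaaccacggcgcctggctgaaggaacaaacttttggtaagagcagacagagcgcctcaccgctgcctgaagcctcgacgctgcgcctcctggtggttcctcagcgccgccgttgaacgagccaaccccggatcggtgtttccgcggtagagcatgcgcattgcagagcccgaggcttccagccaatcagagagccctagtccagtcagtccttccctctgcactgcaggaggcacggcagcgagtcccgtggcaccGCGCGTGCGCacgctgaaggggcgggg
Sdhb has 1 ETS match after the start, at bases 7 to 13, and Ndufa6 has 1 NRF1 match there, at bases 24 to 33. Sdhd holds an NRF1 match, an ETS match and an ERR match, the last being the motif bound by Esrra and related receptors. Cox7a1 and Cox7a2 held none of the 6 motifs in these windows, which says only that these letters are not there.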

How the data were processed

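The RNA values are estimated counts per gene and barcode as deposited by the authors, 95.6% of those above 0 being whole. The hashtag values are counts per oligo and barcode as deposited. The submitters' processing notes name mm10, Cell Ranger 6.1.0, alevin, Salmon 1.4.0 and Seurat 4.3.0, with no role or order for any of them. The genes and lists were chosen with earlier results of these data known.

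Barcodes with at least 500 genes and at most 25% mt- counts were assigned to cultures by HTODemux (Seurat 5.3.0, quantile 0.99). Cells were clustered in scanpy 1.11.5 (Leiden, resolution 0.8, 2000 variable genes, 30 components, 15 neighbours) without the respiratory chain genes. A cluster was named from at least 3 markers. A cluster whose depth was under 0.5 of its cultures' median was left unnamed where none of that class's markers was among its 10 leading genes. The bound was set after seeing the data, and it keeps the cluster of 189 cells out of the cycling-like class. The enteroendocrine-like cluster is also under it and kept its name through its leading genes. Doublets were removed as barcodes with several hashtags (239), and 1054 had none. Scrublet marked 3 barcodes (0.11%), too few to be used.

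Counts were summed per culture and class, rounded and tested with edgeR 4.0.16 (R 4.3.3; quasi-likelihood, TMM scaling with composition factors, filterByExpr, Benjamini-Hochberg adjustment over all genes). The culture was the block in class comparisons, since each culture gave cells of every class. SEs are the log2 difference over the square root of F. In data simulated from these means, 2-fold changes were recovered in 90% of genes for genotype over all cells (10860 genes) and in 85% for enterocyte-like against stem-like (7402 genes), and 1.5-fold changes in 18% and 34%. The simulation gave every gene the same spread between cultures and changed only genes above a minimum level. These rates therefore do not hold for genes of lower level or larger spread. CPM are per 1000000 counts of the culture's cells in that class, and the SDs cover cultures.

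Named were the 13 mt- genes, the 8 largest changes each way per comparison that passed and went the same way in all 5 cultures, the 3 smallest p each way where none passed, Ndufs1, Sdhb, Uqcrc1, Cox4i1 and Atp5b, isoform sets, and the 3 smallest p of each list. The text gives those that bear on a result. The split of complex I into core and accessory subunits was made after values were seen. Some list genes (Elac2, Ppargc1a, Foxred1, Ttc19 and Ogdh) were among the variable genes used for clustering. Alternatives were DESeq2 1.42.0, other scalings, filters, demultiplexing and cluster settings, and leaving out each culture. Some genes are not reported here.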

Additional observations from a re-analysis of the deposited data

Results flagged for a closer look

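Of 95 groups of 5 cultures examined for a value far from the rest (gap over range above 0.71), 2 stood out, and chance alone gives about 1 in 20. Both are stem-like values of mutant culture 1: mt-Cytb was low, at 5260 CPM against 7451 to 7997 CPM in the other cultures, and Cox5a was high, at 904 CPM against 701 to 755 CPM. That culture also had the smallest share of stem-like cells, 12.8% against 19.9% to 28.1%, and whether this bears on the values was not tested.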

How the results depend on the processing

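Calls between classes were the results most open to the settings, and no respiratory chain gene passed between genotypes under any setting except mt-Cytb in stem-like cells with no filter on low counts (1 of 13). In cycling-like cells the median genotype difference of the mt- genes was -0.25 at resolution 1.2 and -0.22 with the 189-cell cluster added, against 0.00. Alternatives named as total counts, cell window, narrower stem-like class (cluster 6 alone) and the 189-cell cluster in the cycling-like class were chosen after seeing the data. In each case the cause was not tested.

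The 8 nuclear rises in cycling-like cells became 26 with DESeq2, 15 with median-of-ratios factors, 28 with no mt- limit, 15 in cells of at least 10000 counts, 35 with MULTIseqDemux, 4 with the genes kept in clustering, 13 and 34 at resolutions 0.5 and 1.2, 49 with the narrower stem-like class and 3 with the 189-cell cluster added. The 1 mt- fall there became 0 with median-of-ratios factors, a limit of 15%, the genes kept in clustering or the 189-cell cluster, 5 with no filter, 6 with no mt- limit, 6 with MULTIseqDemux, 2 at resolution 0.5, 8 with the narrower stem-like class and 2 on total counts. With the 189-cell cluster added the mt- median turned to 0.11, the log2 mt- share ratio to 0.16 and the log2 mt-to-nuclear ratio to 0.083.

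In enterocyte-like cells the 3 mt- calls became 5 in cells of at least 10000 counts. In enteroendocrine-like cells the 63 nuclear falls became 33 on total counts and 27 in the cell window, and the 8 mt- falls became 2 on total counts, where mt-Co1 turned to 0.39 and Cox7a2l to 0.061. In goblet/Paneth-like cells the 8 nuclear falls became 20 with DESeq2, 15 in deep cells, 2 with MULTIseqDemux, 35 with the genes kept in clustering, 21 and 1 at resolutions 0.5 and 1.2, 1 with the narrower stem-like class and 36 on total counts. The 2 mt- falls became 1 with DESeq2, no mt- limit, MULTIseqDemux or the cell window, 5 with no filter, 4 in deep cells, 0 with the genes kept in clustering, 5 with the narrower stem-like class and 4 on total counts. With the genes kept in clustering the mt- median turned to 0.11 and the log2 mt- share ratio to 0.12, and with the narrower stem-like class Atp5g1 turned to 0.37.

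Without the replicate block on culture, the goblet/Paneth-like mt- falls were 1 against 2, no other count moved by over 1.5 times, and 5 of the named calls were lost (Ndufa1 in cycling-like, mt-Co2 in enterocyte-like and enteroendocrine-like, Cox7a1 in enteroendocrine-like and mt-Cytb in goblet/Paneth-like cells). No paired analysis was possible because the labels give the control and mutant cultures no shared numbers.

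The mt- share of all cells was 5.06% with no mt- limit, 3.79% with a limit of 15%, 3.76% in deep cells, 6.18% as a mean over cells and 3.89% without the 189-cell cluster. Its genotype difference was -0.157, -0.167, -0.189, -0.675 and -0.147 points with the limit of 15%, in deep cells, with MULTIseqDemux, as a mean over cells and without that cluster. The nuclear share was 3.93% as a mean over cells. The mt-to-nuclear ratio was 1.23 with no mt- limit, 0.899 with the limit of 15%, 0.888 in deep cells, 1.58 over cells and 0.921 without the cluster, and its genotype difference over cells was -0.273.

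Leaving out 1 culture at a time gave 52 to 60 nuclear rises in enterocyte-like cells, 58 to 63 nuclear and 6 to 10 mt- falls in enteroendocrine-like cells, 4 to 9 nuclear rises (4 without control culture 1 or 2) and 0 to 2 mt- falls in cycling-like cells, 1 to 4 mt- calls in enterocyte-like cells (1 without control culture 1), and 4 to 15 nuclear falls (4 without control culture 1 or mutant culture 1, 15 without mutant culture 3) and 0 to 2 mt- falls in goblet/Paneth-like cells (0 without control culture 2, mutant culture 1 or mutant culture 2). The mt- share ranged from 4.21% to 4.33%, its genotype difference from -0.369 to -0.243 points, the nuclear share from 4.11% to 4.25%.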

Other observations

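Beside the cluster of 189 cells, 2 further clusters were left unnamed. One, of 171 cells led by Ung, Phlda2, Atf5 and Psph, had an mt- share of 3.33% ± 0.194 and a nuclear respiratory chain share of 4.48% ± 0.205 (SD, n = 5 cultures). The other, of 101 cells with a median of 1578 counts per cell, had an mt- share of 5.89% ± 1.38, from 4.51% in mutant culture 3 to 7.46% in control culture 1, and a nuclear share of 3.91% ± 0.138.

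The 2 stem-like clusters differed in both shares. The cluster of 174 cells had 4.96% mt- and 3.48% nuclear counts, and the cluster of 148 cells had 3.60% and 4.24%. Cox6a2, the muscle form of another complex IV subunit, took 1.22% of the counts on its isoform pair in enterocyte-like cells and 0.0354% in stem-like cells, the latter from 1 count.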
